A study of Danio rerio with 6 samples.

Results

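The genes of the cell division cycle and of DNA replication were examined in whole zebrafish larvae reared with and without a microbiota. Members were probesets whose gene symbol in the platform annotation begins with one of a fixed set of cell cycle stems, together with pcna. The stems mcm, orc, rfc, rpa, ccna, ccnb, ccnd, ccne, cdk, cdc, plk and smc had to be followed by a digit. The stems gins, cdt1, gmnn, pola, pold, pole, prim, fen1, lig1, tyms, rrm, cks, aurk, bub, mad2, cenp and top2 did not. Genes such as cdkn1bb and cdca8 were therefore not members. The members numbered 144 probesets for 110 genes, out of 15502 tested probesets that stand for 8793 genes with a single symbol. Another 2 matching probesets carry several symbols and were left out. The rule uses names and not measured values, but it was chosen with earlier results of these data known. It takes in some genes that only share a name with the cell cycle.

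The study compared 2 groups of strain C32 larvae at 6 days post-fertilization, all reared under gnotobiotic conditions. Germ-free larvae were kept free of microbes, whereas colonized larvae were germ-free to day 3 and then carried the microbiota of conventional zebrafish until day 6. Each group had 3 replicate pools of 28 to 80 intact larvae, with 1 Affymetrix array per pool, so every value is an average over whole animals. Since each array reports RNA of the whole body, fewer cells of a type and less RNA per cell cannot be told apart. The values are array intensities in the authors' linear units, differences are colonized minus germ-free on the log2(intensity + 32) scale, and intensities of different probesets do not rank genes by their RNA level. Values are given in the order germ-free replicates 1, 2 and 3, then colonized replicates 1, 2 and 3, with means ± SD over 3 pools.

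Before S phase, the origin recognition complex, Cdc6 and Cdt1 load the Mcm2-7 helicase onto replication origins, which is called licensing. Cyclin-dependent kinases then start DNA synthesis, in which the sliding clamp PCNA holds the polymerases on the template, and later drive mitosis through cyclins A and B until the anaphase-promoting complex destroys them. In larvae of this age, dividing cells are found at the retinal margin, in the proliferative zones of the brain, in the intestinal epithelium and in blood-forming tissue, beside many tissues that have mostly left the cycle.

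None of the member probesets passed the test in either direction: with colonization, 0 were called higher and 0 were called lower. The test was limma with Benjamini-Hochberg adjustment over all 15502 probesets at an adjusted p under 0.05, which called 1.70% of all tested probesets, 1.28% of them higher and 0.413% lower. Mean intensity was at least 100 for 46 members, or 31.9%, beside 46.5% of all tested probesets, and under 32 for 18 members, or 12.5%, beside 18.5%. The smallest adjusted p among members was 0.0733, for ccna1. At an unadjusted p under 0.05 there were 9 members, 6.25% of them, against 13.2% of all tested probesets. Of these, 5 had higher and 4 had lower means in colonized pools, where 8.54% and 4.68% of all tested probesets did. By role, these were 3 licensing, 1 G1, 2 mitotic, 1 chromosome and 2 other probesets, with 0 among the synthesis and 0 among the centromere genes.

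The differences of the members were small as well as uncalled. Their log2 differences had a median of -0.03 and quartiles of -0.11 and 0.07, beside a median of 0.02 and quartiles of -0.08 and 0.12 for all tested probesets. A difference of under 0.25 in size was found for 134 members, or 93.1%, beside 86.4% of all tested probesets. The sign was negative for 83 members and positive for 61, while 55.2% of all tested probesets had a positive sign. Without germ-free replicate 1 the median of the members changed sign, to 0.01, beside 0.03 for all tested probesets. The 95% interval of the difference stayed within 1.5-fold of intensity + 32 in both directions for 137 members, or 95.1%, beside 90.3% of all tested probesets. Among probesets of mean intensity at least 100 these shares were 89.1% and 85.2%. For dim probesets the limit allows larger changes of intensity: a probeset of mcm6l, counted as inside, had a colonized mean of 0.529 times the germ-free mean. The 7 members whose interval went beyond this limit were smc5, mcm5, ccna1, cdk11b, cdc42se1, pcna and rrm2l. Larger differences in these genes were therefore not bounded by 3 pools a group. Intensities of the 2 groups did not overlap in 24 members, or 16.7%, beside 19.6% of all tested probesets. Colonized values were the higher ones in 13 of these and the lower ones in 11, and 12.5% and 7.08% of all tested probesets were of these kinds.

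**Figure D1:**
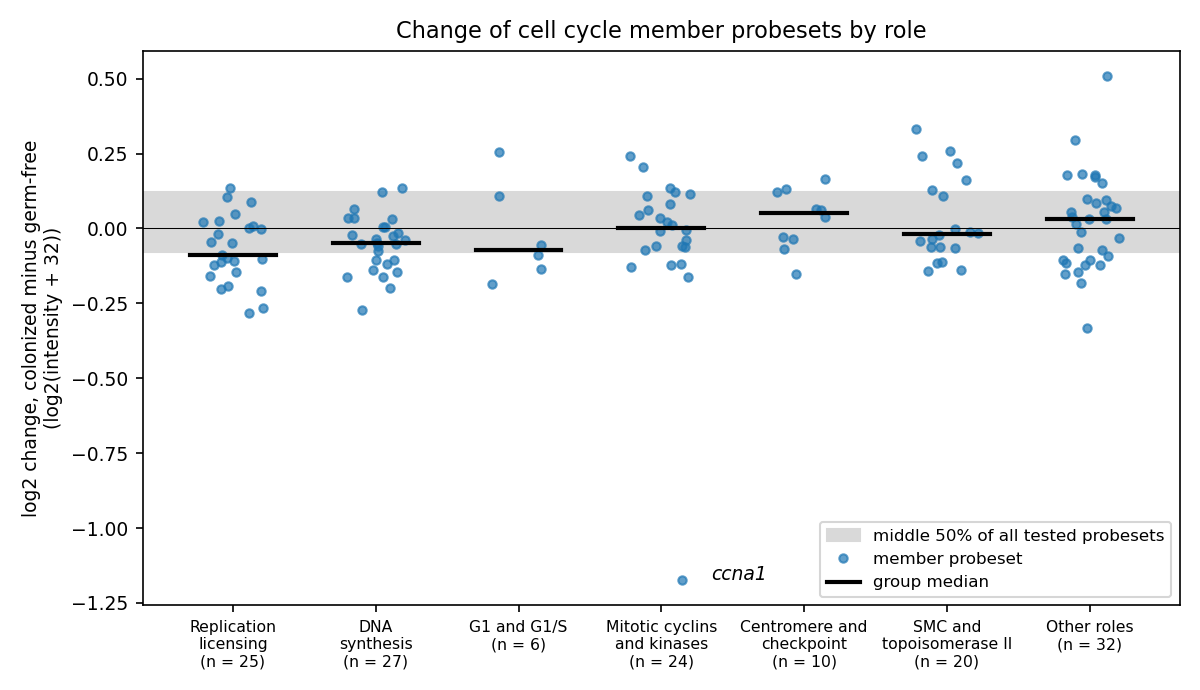
Each point is a member probeset, placed by role; the vertical axis is the difference, colonized minus germ-free, on the log2(intensity + 32) scale, the bars are group medians and the grey band spans the quartiles of all tested probesets. Medians lie between -0.09 for replication licensing and 0.05 for centromere and checkpoint genes, and ccna1 stands alone at -1.17.

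Replication licensing genes, 25 probesets of 23 genes, had a median log2 difference of -0.09, with 17 below and 8 above 0 and 0 called. Of the Mcm2-7 helicase subunits, mcm6l not counted, 6 of 7 probesets were below 0, and all 7 lay between -0.19 and 0.01. Their adjusted p lay between 0.702 and 0.999 in limma with Benjamini-Hochberg adjustment. The brightest of them was mcm7, with intensities of 404, 359 and 438 in germ-free and 359, 358 and 388 in colonized pools. The groups overlapped, with means of 400.3 ± 39.7 and 368 ± 16.9. The log2 difference of mcm7 was -0.11 ± 0.10 (SE), with a 95% interval of -0.34 to 0.12 and a limma adjusted p of 0.702.

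Intensities of mcm2 were 161, 134 and 131 in germ-free and 120.4, 125 and 186 in colonized pools. The group means, 142 ± 16.6 and 144 ± 36.6, lay within the spread of either group, and the 95% interval of the log2 difference ran from -0.32 to 0.32 (adjusted p 0.999). A single colonized pool, replicate 3, lay above all others, and the remaining colonized pools lay below all germ-free pools. The same pool was the highest of the 6 for mcm4, whose intensities were 148, 127 and 141 against 107, 126 and 172 (log2 difference -0.04, adjusted p 0.924). The widest fitted interval of the helicase genes was that of mcm5, chosen after its values were seen, with intensities of 115, 76.5 and 129 against 70.7, 73.8 and 126 and an interval of -0.61 to 0.22.

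The origin recognition complex, which marks the sites where the helicase is loaded, had 4 of its 6 measured subunits below 0, between -0.28 and 0.02. For orc4 the intensities were 123, 109 and 122 in germ-free and 105, 92.99 and 94.5 in colonized pools. The groups did not overlap and had means of 118 ± 7.69 and 97.7 ± 6.83. The log2 difference was -0.21 ± 0.09 (SE), with a limma adjusted p of 0.378. For orc2, chosen after its values were seen, the intensities were 94.8, 101 and 91.1 against 65.9, 72.1 and 81.03, again without overlap. Its log2 difference was -0.28 ± 0.09 (SE), with a 95% interval of -0.49 to -0.08 and an adjusted p of 0.211. Licensing probesets without overlap numbered 5, or 20.0%, near the 19.6% of all tested probesets, and all 5 had lower colonized values, as 7.08% of all tested probesets did. Beside orc4 and orc2 they include mcm9, a helicase used in recombination repair in mouse and chosen after its values were seen, at -0.20 (adjusted p 0.348). They also include both probesets of mcm6l, chosen after its values were seen, at -0.09 and -0.27 (limma adjusted p 0.704 and 0.260). The second of these was dim, at means of 18.3 and 9.68. The loading factors and their inhibitor differed in sign: cdc6 was at -0.11, cdt1 at 0.14 and gmnn, which encodes the Cdt1 inhibitor geminin, at -0.10, none of them called.

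DNA synthesis genes, 27 probesets of 25 genes, had a median of -0.05, with 19 below and 8 above 0. Here 0 were called and 0 had an unadjusted p under 0.05 in limma, and the smallest adjusted p was 0.528. The sign of the median changed when germ-free replicate 1 was left out, to 0.0066, and without colonized replicate 3 the median was -0.11. The clamp gene pcna, the member of highest intensity, had intensities of 746, 541 and 579.7 in germ-free and 441, 453 and 754 in colonized pools. The lowest and the highest of these 6 values were both in colonized pools, which spanned a 1.71-fold range, and germ-free pools spanned 1.38-fold. Means were 622 ± 109 and 549 ± 177. The log2 difference of pcna was -0.20 ± 0.19 (SE), its 95% interval ran from -0.63 to 0.23, and its limma adjusted p was 0.707. Dropping germ-free replicate 1 or colonized replicate 1 brought the difference to -0.07, dropping colonized replicate 2 to -0.09 and dropping colonized replicate 3 to -0.44, none of them called.

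All 3 probesets of replication protein A, which coats single-stranded DNA, were below 0, between -0.16 and -0.08, and none was called. For rpa1 the intensities were 221, 179 and 203 against 164, 179.6 and 226, with means of 201 ± 20.7 and 189.8 ± 32.6, so the groups overlapped (adjusted p 0.844). The small-subunit gene of ribonucleotide reductase rrm2l, which serves in making deoxynucleotides, had intensities of 243, 217 and 142 against 130.3, 144 and 203. Its means of 200.4 ± 52.5 and 159 ± 38.7 differed by -0.27 ± 0.19 (SE) on the log2 scale, with an interval of -0.68 to 0.14 (limma adjusted p 0.574). Its partner rrm1, the large subunit, was at -0.02 (adjusted p 0.968) and the thymidylate synthase gene tyms was at -0.02 (adjusted p 0.966); both were chosen after their values were seen. Placed here by its symbol, poldip2 encodes a partner of DNA polymerase delta. Its log2 difference was 0.03 (limma adjusted p 0.925). The clamp loader genes rfc1, rfc3, rfc4 and rfc5 lay between -0.05 and 0.03 over 5 probesets, and the polymerase alpha, delta and epsilon subunits between -0.16 and 0.13 over 9.

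**Figure D2:**
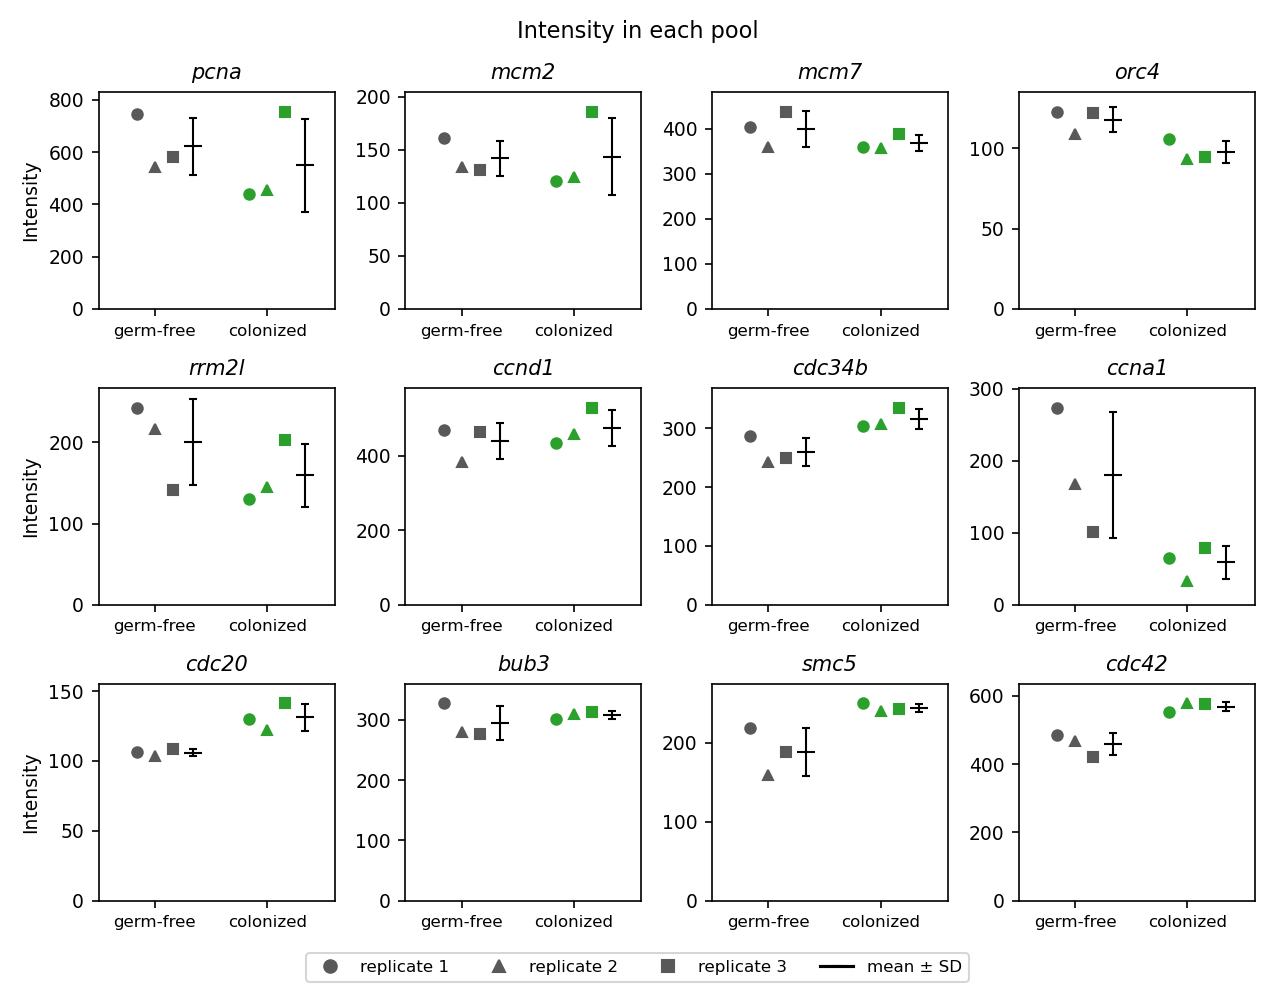
Each panel gives the intensity (vertical axis, linear, from 0) of 1 named gene in the 3 germ-free and 3 colonized pools, with the replicate shown by the marker shape and the mean ± SD beside the points. Colonized replicate 3 is the highest of its group in all panels but those of orc4, smc5 and cdc42. The groups do not overlap for orc4, cdc34b, ccna1, cdc20, smc5 and cdc42.

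The genes of G1 and of entry into S phase were 6 probesets of 5 genes, with a median of -0.07 and 0 called. Cyclin D1, encoded by ccnd1, binds the kinases that release the cell from G1; its intensities were 469, 383 and 464 against 435, 459 and 529. The groups overlapped, at means of 438 ± 48.3 and 474 ± 48.9 (log2 difference 0.11, adjusted p 0.741), and the gene's second probeset was at -0.09 (adjusted p 0.748). The paralogs cdc34a and cdc34b, which encode the ubiquitin-conjugating enzyme of the SCF ligase, had differences of opposite sign. Intensities of cdc34b were 288, 243 and 249 against 304, 307 and 335, without overlap, a log2 difference of 0.25 ± 0.10 (SE) with an interval of 0.03 to 0.48 (limma adjusted p 0.314). Intensities of cdc34a were 157, 148 and 162 against 137, 128 and 134, also without overlap, a log2 difference of -0.19 ± 0.09 (SE) with an adjusted p of 0.421. The difference between the paralogs was not tested. The kinase gene cdk2, which drives S phase with cyclins E and A, was at -0.13 (adjusted p 0.618).

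Mitotic cyclins, kinases and regulators, 24 probesets of 19 genes, were spread evenly about 0, with 12 above and 12 below, a median of 0.00 and 0 called. The cyclin A gene ccna1, which in mouse acts mainly in the male germ line, had intensities of 274, 168 and 101 in germ-free and 65.7, 33.6 and 78.3 in colonized pools. All colonized values lay below all germ-free values, but the germ-free pools themselves were widely spread. The means were 181 ± 87.5 and 59.2 ± 23.02, so the colonized mean was 0.327 times the germ-free mean. The log2 difference was -1.17 ± 0.28 (SE), with a 95% interval of -1.79 to -0.56 and an adjusted p of 0.0733 by limma with Benjamini-Hochberg adjustment, above the limit. Leaving out germ-free replicate 3 gave an adjusted p of 0.00391 and leaving out colonized replicate 2 gave 0.288, so single pools decide this call. The array number in the title of germ-free replicate 3 does not follow on from the others, and the titles say nothing of a separate run. Median centring, a replicate block and array weights also gave an adjusted p under 0.05 (0.0452, 0.0458 and 0.00601).

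Among 10 listed germ cell marker genes, 8 were measured, and 1 was called, lower in colonized pools. That gene was the egg coat gene zp2.6, with intensities of 216, 103 and 235 against 5.21, 5.67 and 5.57 (log2 difference -2.47, limma adjusted p 0.000233). Summed intensities of the 8 markers were 631 to 893 in germ-free and 585 to 645 in colonized pools, which overlap, and the order of the germ-free pools differed between zp2.6 and ccna1. The part of germ cells in the ccna1 values was not tested.

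The cyclin A gene of dividing somatic cells, ccna2, was at -0.12 (adjusted p 0.664). The cyclin B genes lay between -0.16 and 0.14 over 7 probesets, 6 of them below 0, and their kinase gene cdk1 was at 0.12 (adjusted p 0.691). The activator of the anaphase-promoting complex, cdc20, had intensities of 106, 103 and 108 against 130.1, 122 and 141. Its groups did not overlap, at means of 106 ± 2.57 and 131 ± 9.54, and the log2 difference was 0.24 ± 0.09 (SE), with an interval of 0.04 to 0.44 (limma adjusted p 0.289). Subunits of the complex it activates gave 0.08 for cdc26, 0.04 for cdc27 and 0.02 for cdc23. The Cdk1-activating phosphatase cdc25b was at -0.06 (adjusted p 0.879), the phosphatase cdc14b at -0.01 (adjusted p 0.982) and the polo-like kinase plk3 at 0.11 (adjusted p 0.695).

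Centromere and spindle checkpoint genes, 10 probesets of 9 genes, had the highest group median, 0.05, with 6 above and 4 below 0 and 0 called. The checkpoint gene bub3, the brightest of them, had intensities of 328, 279.8 and 277 against 302, 310.3 and 313 (log2 difference 0.06, adjusted p 0.836). The kinetochore motor gene cenpe was at 0.13 (adjusted p 0.563) and the checkpoint kinase gene bub1ba at 0.12 (adjusted p 0.650). Only mad2l2 in this group had no overlap, at 58.3, 55.3 and 52.9 against 65.8, 68.4 and 64.03 (log2 difference 0.17 ± 0.08 (SE), limma adjusted p 0.434). It falls here by symbol, and its product is best known as a subunit of the translesion polymerase zeta.

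Genes of the SMC complexes and of topoisomerase II, which hold, condense and untangle chromosomes, were 20 probesets of 7 genes with a median of -0.02 and 0 called. The largest difference was in smc5, of the Smc5/6 repair complex, at 219, 159 and 188 against 249.9, 240.2 and 242. All colonized pools lay above all germ-free pools, at means of 244 ± 5.05 against 189 ± 30.2. The log2 difference was 0.33 ± 0.11 (SE), with an interval of 0.08 to 0.59 and a limma adjusted p of 0.238. The cohesin genes smc1al and smc3 were at -0.06 (adjusted p 0.876) and -0.03 (adjusted p 0.938), and the condensin gene smc4 at -0.11 (adjusted p 0.729). The other probesets of smc1al reached 0.26, so probesets of 1 gene differed in sign. Of 19 member genes with several probesets, 10 had all of them on 1 side of 0 and 9 did not, among them top2a and top2b, and 0 of these probesets was called.

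The remaining 32 probesets of 22 genes match the rule by name but mostly act outside the cell cycle; their median was 0.03. The brightest was cdc42, a small GTPase of cell polarity and the actin skeleton, at 484, 467 and 421 against 552, 578 and 574. These values did not overlap, at means of 457 ± 32.5 and 568 ± 13.9, and the log2 difference was 0.30 ± 0.09 (SE), with an interval of 0.09 to 0.50 (limma adjusted p 0.186). The 4 probesets of cdc42 ranged from -0.12 to 0.30 and were not called. Of the 10 probesets of cdc42, its relative cdc42l and its effectors, 8 were above 0. The largest of these was cdc42se1, which encodes a small Cdc42 effector, at 86.8, 74.7 and 32.3 against 89.7, 96.5 and 118 (log2 difference 0.51 ± 0.20 (SE), adjusted p 0.305). The other named genes of this kind were cdc42l at 0.15, the neuronal Cdk5 activator gene cdk5r2a at -0.11, the Mediator kinase gene cdk8 at -0.12 and cdk2ap2 at -0.18, with limma adjusted p between 0.489 and 0.730.

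**Figure D3:**
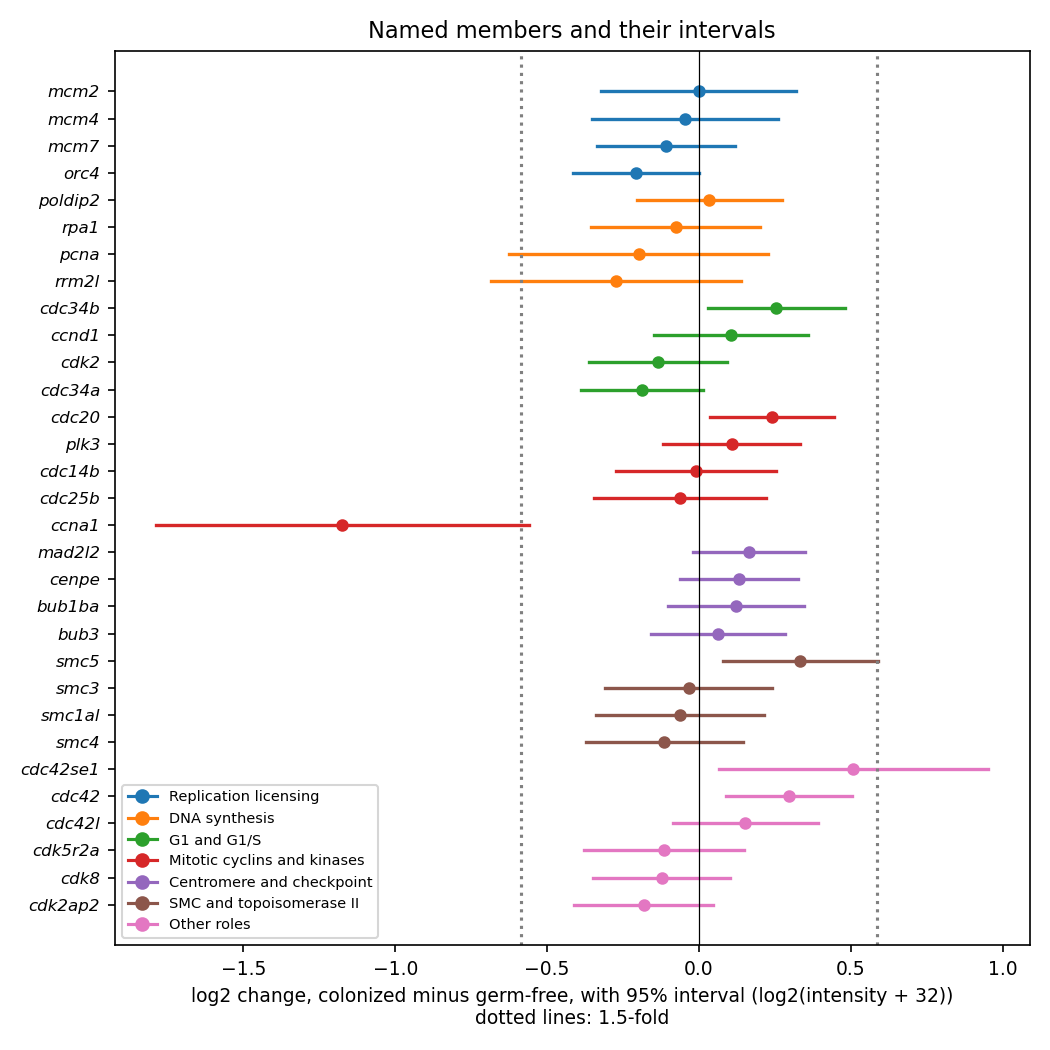
Points are the log2(intensity + 32) differences, colonized minus germ-free, of the named members, coloured by role, with 95% intervals from limma. Dotted lines mark 1.5-fold of intensity + 32 in either direction. All intervals but those of pcna, rrm2l, ccna1, smc5 and cdc42se1 stay between the dotted lines.

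Pools within a group differed from each other in an order that many DNA synthesis probesets shared. This pattern was noticed after the values were seen and is given as a description with no test. For 17 of the 27 DNA synthesis probesets, or 63.0%, germ-free replicate 1 was the highest germ-free pool and colonized replicate 3 the highest colonized pool. Taken singly, germ-free replicate 1 led its group in 21 synthesis probesets (77.8%; 40.4% of all tested probesets) and colonized replicate 3 led in 21 (77.8%; 44.7% of all tested probesets). Both pools led together in 19.7% of all tested probesets, 20.0% of the licensing probesets, 16.7% of the mitotic, 40.0% of the 10 centromere and 83.3% of the 6 G1 probesets. The synthesis genes with this order include pcna, rrm1, rrm2l, tyms, rpa1, rpa2 and rpa3, and of the Mcm2-7 helicase 5 of 7 probesets had it. The 17 synthesis probesets also include poldip2, which is in this group by symbol. The 2 probesets of mcm6l, not counted among these 7, did not have this order. The origin recognition complex, with 0 of 6, and the GINS complex, with 0 of 4, did not.

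The 2 pools also had the highest median intensity of their groups, 93.4 for germ-free replicate 1 and 93.8 for colonized replicate 3, where the others lay between 85.97 and 90.1. After each array was centred on its median, 11 synthesis probesets, or 40.7%, had this order, against 9.07% of all tested probesets; of the 6 G1 probesets 3 had it, a larger share than of the synthesis probesets, and of the centromere probesets 0. The median log2 deviation of synthesis probesets from their own group's mean was 0.12 in germ-free replicate 1 and 0.13 in colonized replicate 3. After centring these deviations were 0.07 and 0.10. Examples outside the named genes, chosen after their values were seen, are tyms at 64.7, 53.4 and 54.9 against 49.6, 49.4 and 72.4, and rrm1 at 128, 98.5 and 77.8 against 89.2, 80.2 and 129. Probesets of 1 array share its RNA and its labelling, and no label gives a batch or the larval number of each pool, so their part in this order was not tested.

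**Figure D4:**
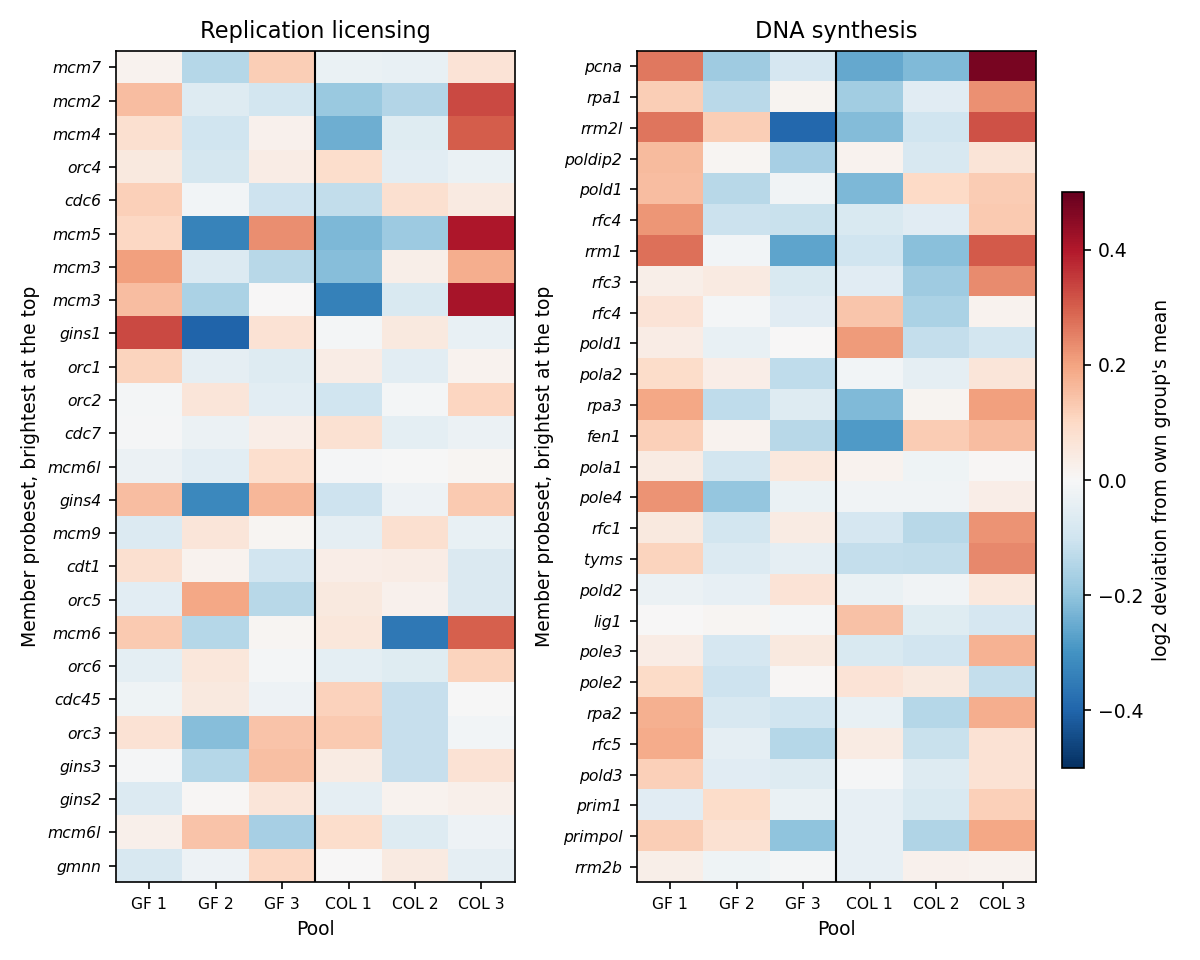
Each row is a licensing (left) or DNA synthesis (right) probeset and each column a germ-free (GF) or colonized (COL) pool; colour gives the log2(intensity + 32) deviation from the mean of the pool's own group, red above and blue below. Colonized replicate 3 is mostly red for synthesis genes and for mcm2 to mcm6, and mixed for orc and gins genes.

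**Figure D5:**
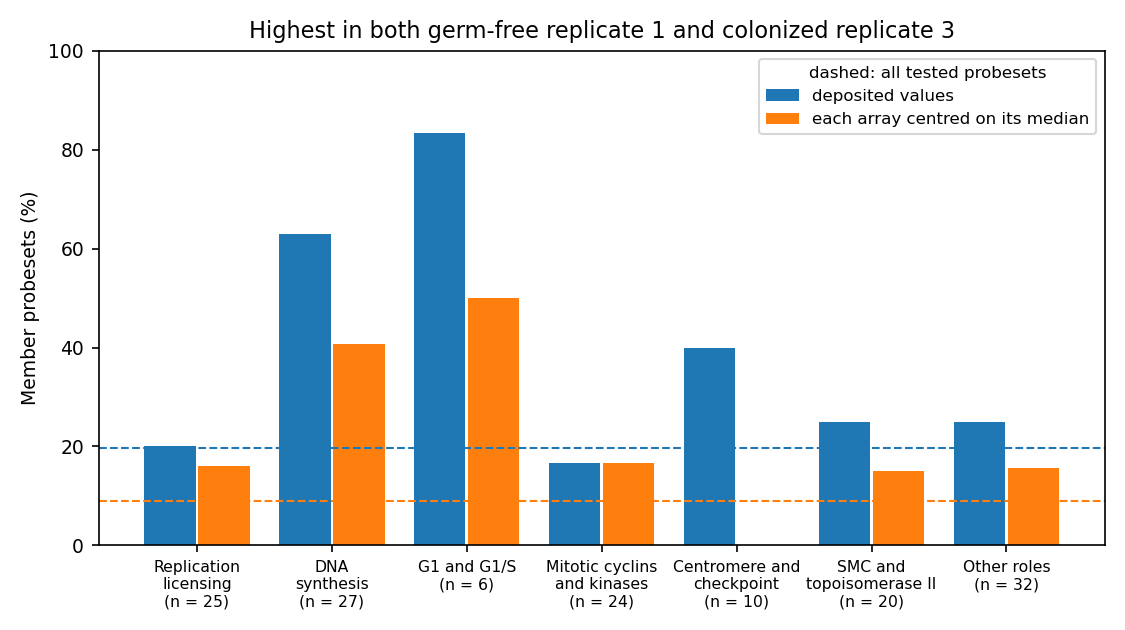
Bars give the percentage of member probesets of each role that are highest in both germ-free replicate 1 and colonized replicate 3, for the deposited values and after centring each array on its median; dashed lines are the same percentages over all tested probesets. DNA synthesis stands at 63.0% and 40.7%, against 19.7% and 9.07% over all tested probesets.

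Genes of the same processes that the name rule does not reach were counted on 1 probeset per gene. Of 30 listed S phase genes 17 were measured, with 0 called and a median of -0.12. These include the mismatch repair gene msh6, with means of 147 ± 1.72 and 109 ± 7.48 (log2 difference -0.35, limma adjusted p 0.110), and the maintenance methylation genes dnmt1, at 148, 122 and 123 against 109, 100.4 and 169, and uhrf1, at 184, 140.1 and 183 against 112, 104 and 179. In 6 of the 17 genes germ-free replicate 1 and colonized replicate 3 were both the highest of their groups, dnmt1 and uhrf1 among them, and in 4 after centring; the other 11, msh6 included, did not have this order. Of 55 listed mitotic genes 44 were measured, with 0 called and a median of 0.02; the proliferation marker mki67 was at -0.02 (adjusted p 0.957). Of 29 listed G1 and S regulators 19 were measured, with 0 called and a median of 0.01, among them the growth factor-responsive transcription factor gene mycb at 0.44 (adjusted p 0.131). At an unadjusted p under 0.05 in limma there were 3 of the 17 S phase, 2 of the 44 mitotic and 3 of the 19 G1 and S genes. Of all tested probesets 13.2% were under this limit. The genes msh6, dnmt1, uhrf1 and mycb were chosen after their values were seen.

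Of 11 listed p53 target genes 8 were measured and 1 was called higher. Their log2 differences had a median of 0.18 and ran from -0.06, for ccng1, to 0.90. In 5 of the 8 the groups did not overlap, beside 19.6% of all tested probesets. The stress-induced growth arrest gene gadd45ba had intensities of 248, 219 and 259.7 in germ-free and 554, 545 and 359.8 in colonized pools, without overlap. Its mean went from 242 ± 20.7 to 486 ± 109.8, a log2 difference of 0.90 ± 0.15 (SE) with a limma adjusted p of 0.0162. Dropping germ-free replicate 1 raised the adjusted p to 0.0578, and dropping germ-free replicate 2 to 0.0663. It became 0.0965 when colonized replicate 1 was dropped and 0.108 when colonized replicate 2 was. Members of the same list that were not called include tp53inp1, at 0.62 (adjusted p 0.0906). Its relative gadd45aa, in the same list, was at 0.05 (limma adjusted p 0.871), and its groups overlapped. The list names genes of families with known p53 targets, and other stress signals than p53 also induce gadd45 genes. A p53 response was not tested.

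Markers of several other cell types differed between the groups. Of 14 measured markers of neural progenitors and the retinal margin 0 were called, with a median of -0.08. Their summed intensities were 3011 to 3393 in germ-free and 2808 to 2983 in colonized pools, which do not overlap. The largest part of these sums was fabp7a, at means of 747 ± 67.6 and 558 ± 40.6. It also had the largest difference of the list (log2 difference -0.399, not called). Without fabp7a the sums of the groups overlap, so they do not show a fall of these markers as a set. Taken singly, 3 of the 14 had no overlap, beside 19.6% of all tested probesets. The list holds ccnd1, which is also a member, at 0.11. The limma test called 5 of 8 myeloid and 4 of 5 hepatocyte markers higher in colonized pools, where it called 1.28% of all tested probesets. It called 4 of 7 photoreceptor, 4 of 7 enterocyte and 1 of 5 exocrine pancreas markers lower, where it called 0.413%. The 4 hepatocyte genes called were tfa, fgb, c3a.1 and cp. The other hepatocyte marker, fabp10a, was not called (log2 difference 0.22, limma adjusted p 0.467), and its groups overlapped. The 4 enterocyte genes called were fabp2, fabp1b.1, fabp6 and rbp2a. Another enterocyte marker, vil1, was higher in colonized pools, without overlap but not called (log2 difference 0.46, limma adjusted p 0.173). Of 9 markers of erythrocytes and blood progenitors, all had a positive difference. In limma 5 had an unadjusted p under 0.05, beside 13.2% of all tested probesets. Only the haem synthesis gene alas2, at 0.75, was called higher (limma adjusted p 0.0271). Their sums were 1209 to 3674 in germ-free and 4918 to 7701 in colonized pools, without overlap. The largest part of these sums was 1 globin gene, hbae3, at means of 1622 ± 1268 and 4999 ± 1437 (limma adjusted p 0.0578, not called). Of the 9 markers, 6 had no overlap between the groups, where 19.6% of all tested probesets had none. Among these 6, klf1 was dim, at means of 7.85 and 16.3, as was tal1, at 23.2 and 30.8. The groups overlapped for hbbe3, for myb, at 0.06, and for lmo2, at 0.26. For myeloid markers the sums were 637 to 709 in germ-free and 1809 to 2194 in colonized pools. RNA quality can be read from the acta1 control probesets: their log2 ratio of 3' over 5' signal was 2.35, 2.64 and 2.47 in germ-free and 2.98, 3.00 and 2.79 in colonized pools, which do not overlap. How far cell composition or RNA quality bears on the cell cycle values was not tested.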

How the data were processed

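Whole larvae of 2 groups, 3 pools each, were measured on 1-colour Affymetrix arrays. The deposited intensity values were, per the series' design text, scaled by the authors with invariant sets and summarised perfect match minus mismatch probes in dChip. That normalization removes a change shared by most genes. The genome build and probe design are not given in the sources used here.

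Of 15617 probesets, 115 controls were left out and 15502 tested, dim ones included. Values were taken as log2(intensity + 32), which understates differences of dim probesets; 18 members had a mean intensity under 32. The group was fitted with limma 3.58.1 in R 4.3.3 with an intensity trend, with two-sided tests and Benjamini-Hochberg adjustment, and probesets with an adjusted p under 0.05 were called. The fit was tested on simulated data. Symbols came from the platform annotation; 141 of 144 members were found in a RefSeq table and 0 symbols changed. The number of arrays limits the precision.

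Members, lists, roles and tests were chosen with earlier results of these data known. Named members are pcna, any called member, per role the 4 brightest, and per role up to 2 rises and 2 falls without overlap and with a mean of at least 100 in the higher group. Each gene is represented by its probeset of highest mean log2 value. Other members are marked as chosen after their values were seen, or given only to complete a complex or a list. Genes named singly from the lists outside the rule followed no naming rule, and msh6, dnmt1, uhrf1 and mycb were chosen after their values were seen. Same-numbered pools of the 2 groups had correlations of their deviations of -0.08, 0.10 and 0.07, so the replicate numbers were not taken to pair the samples. Alternatives were pseudocounts of 16 and 100, quantile normalization, median centring, an intensity minimum of 100, a replicate block, array weights and leaving out each pool.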

Additional observations from a re-analysis of the deposited data

How the results depend on the processing

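The number of member probesets called higher was 0 under all alternatives run. The number called lower was 1, ccna1, with median centring (adjusted p 0.0452), with the replicate block (0.0458) and with array weights (0.00601), and 0 to 1 when 1 pool was left out. That 1 arose without germ-free replicate 3 (0.00391). Over all alternatives the adjusted p of ccna1 in limma ran from 0.00391 to 0.288 and its log2 difference from -1.56 to -0.78. Of all probesets, 263 were called, 569 with array weights and 114 to 410 when 1 pool was left out: 410 for germ-free replicate 3, 173 for germ-free replicate 1, 137 for colonized replicate 1 and 114 for colonized replicate 2. The median of the G1 and S phase entry members was -0.07, but 0.0085 with an intensity minimum of 100, which leaves fewer probesets, and -0.15 to 0.0059 when 1 pool was left out. Of the listed mitotic genes outside the name rule, 0 to 1 was called when 1 pool was left out, the 1 being kpna2 without germ-free replicate 3. Of the p53 targets, 2 were called with array weights and 0 to 2 when 1 pool was left out. It was 2, gadd45ba and tp53inp1, when germ-free replicate 3 was dropped, and 0 when replicate 1 or 2 of either group was. The replicate block changed no other call among the members and lists. The other role medians moved by less than the spread between pools, but not all of them kept their sign. When 1 pool was left out, the median ran from -0.11 to 0.0066 for DNA synthesis, -0.02 to 0.02 for mitotic, -0.06 to 0.04 for chromosome and -0.01 to 0.03 for other members, and from -0.12 to -0.05 for licensing and 0.02 to 0.09 for centromere members. Over the other settings it ran from -0.02 to 0.08 for mitotic and -0.03 to 0.04 for other members. Leaving out a pool also lowers the number of samples, and causes of these changes were not tested. Intensities of members had a median of 71.3, beside 91.0 for all tested probesets, and small differences in the 18 members under 32 were not resolved.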
